A study of Homo sapiens with 4 samples.

Results

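The 10 genes HSPA1A, HSPA1B, HSPA8, HSP90AA1, HSP90AB1, HSPB1, HSPH1, DNAJB1, HSPD1 and HSPE1 encode the main heat shock proteins of the cytosol and of mitochondria. They were taken by symbol from a table of 59409 gene symbols, and each symbol was found once. Polyadenylated RNA had been sequenced from the human cell line 786-O, which derives from a renal clear cell carcinoma and makes no working VHL protein. The knockout group had 2 libraries from cells in which DEK, a chromatin-associated protein, was targeted with guide RNAs in a Cas9-expressing clone followed by sorting of single cells. The control group had 2 libraries labelled as negative control with a wild-type genotype, and both groups carry the lentiviral Cas9. Which clone a knockout library represents, and whether the libraries of a group were grown as separate cultures, is not in the labels, so p-values measure only the spread between libraries, which may be technical.

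Heat shock proteins are chaperones, which bind unfolded or unstable proteins and help them reach or keep their fold. HSP70 proteins bind short exposed stretches in cycles driven by ATP, J-domain proteins start that cycle and HSP110 proteins end it by exchanging the nucleotide, while HSP90 acts later on kinases, steroid receptors and other clients. In mitochondria, proteins are folded inside the chaperonin made of HSPD1 and its lid HSPE1. Many of these genes are transcribed at a basal level and are induced by the transcription factor HSF1 when unfolded proteins accumulate, through repeats of the bases GAA and their complement in promoters.

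The values were TPM, transcripts per 1000000, which are per gene length and sum to 1000000 in each library. Steps in the values put the depth, in units of 1000000 reads, at about 35.3 and 39.5 in the knockouts and 38.3 and 38.9 in the controls. DEK mRNA stood at 31.4 and 15.7 TPM in the knockouts, against 95.02 and 76.3 TPM in the controls, lower by limma (log2 fold change -1.89, SE 0.33, adjusted p = 0.030), and the mRNA remained detectable. Leaving out control 1 gave an adjusted p of 0.139 for DEK, leaving out control 2 gave 0.103, no filter gave 0.0955 and a variance prior without trend gave 0.0563. A fit without 1 library leaves its group with a single library, which is assumed to vary like the other group. All 10 markers chosen for the line were above 1 TPM. PAX8 had 140 and 160 TPM in the knockouts and 153 and 142 TPM in the controls. The summed level of the 10, 10425 to 10633 TPM in the knockouts and 9640 to 9872 TPM in the controls, is mostly VIM, and PAX2, CDH6 and ANXA4 were lower in both knockouts, ANXA4 with 232 and 102 TPM in the knockouts against 497 and 454 TPM in the controls. Of 18 markers of blood cells, endothelium and fibroblasts, only COL1A1 reached 1 TPM, at 2.33 and 1.48 TPM in the knockouts and 1.59 and 1.60 TPM in the controls. In RNA from a whole culture, fewer cells with a transcript and less of it per cell cannot be told apart.

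Of the heat shock protein mRNAs, 1 of 10 differed between DEK knockout and control cells beyond the threshold. All 10 genes passed the filter of 1 TPM in at least 2 libraries. HSPE1 fell in the knockout and was the only member past that threshold, an adjusted p under 0.05 with limma and Benjamini-Hochberg adjustment over 15815 genes. Over all tested genes 17.7% were called, 9.06% as higher and 8.67% as lower, so 1 of 10 members is near the background. No member was called higher, and 1 of them, HSPA1A, was higher at an unadjusted p under 0.05. The median log2 fold change of the members was 0.03, against -0.06 over all tested genes, and the median size without regard to sign was 0.18, against 0.29. Part of that gap goes with level. A floor of 12.7 TPM in both group means, the lowest mean of a member, left 7210 tested genes. Their median size was 0.24, and 21.8% of them were called. Both knockouts lay above both controls for 2 members (29.2% of all tested genes) and below both controls for 3 members (39.0% of all tested genes). Groups of 5 of the 10 members did not overlap, against 68.3% of all tested genes. The members together made up 5945 and 6266 TPM in the knockouts, against 6081 and 6337 TPM in the controls, so the groups overlapped in this sum.

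**Figure D1:**
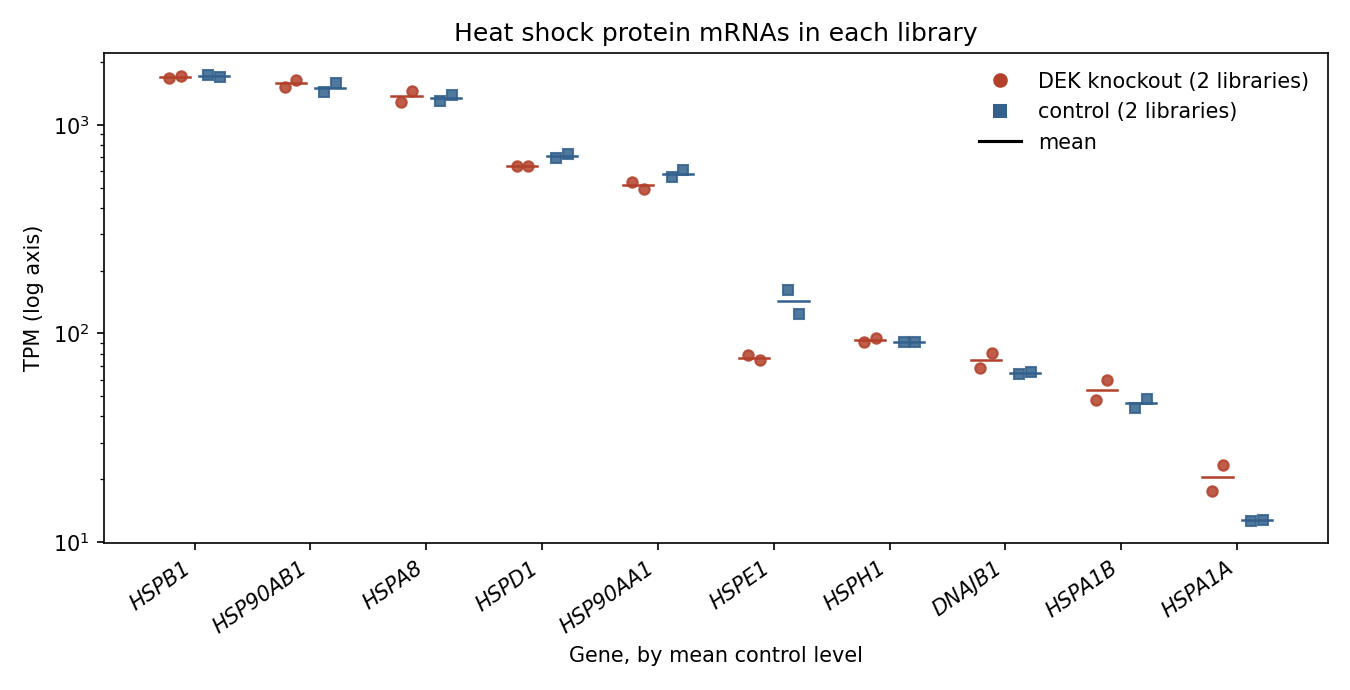
TPM on a log axis of the 10 heat shock protein genes in each library, knockouts as red circles and controls as blue squares, with a line at the mean of each group of 2. HSPE1 shows the widest gap between groups, at 74.6 and 78.4 TPM in the knockouts against 124 and 161 TPM in the controls, and HSPA1A is the member with the clearest higher level in the knockouts.

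The levels spanned a wide range, and their order was nearly the same in both groups. In the knockouts HSPB1 led with 1695 ± 24.8 TPM, then HSP90AB1 with 1578 ± 81.1 TPM and HSPA8 with 1369 ± 127 TPM (SD, n = 2). In the controls the same 3 genes led, HSPB1 with 1712 ± 19.2 TPM, HSP90AB1 with 1504 ± 106 TPM and HSPA8 with 1341 ± 58.2 TPM (SD, n = 2). HSPD1 and HSP90AA1 followed in both groups, and HSPA1A was the lowest member in both. The places of HSPE1 and HSPH1 were exchanged, with HSPE1 below HSPH1 in both knockouts and above it in both controls. In the knockouts the ranges of HSPE1 and DNAJB1 overlapped, so that these neighbours in the order do not differ beyond their spread.

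Of the mitochondrial pair, HSPE1 fell in the knockout and HSPD1 did not pass the test. HSPE1, the lid of the chaperonin, lies on chromosome 2 from 197499994 to 197503457 on the plus strand (GENCODE release 29 on GRCh38, as for all gene positions here). It had 78.4 and 74.6 TPM in the knockouts, against 161 and 124 TPM in the controls. Both knockouts were thus well below both controls and close to each other, while the controls differed more. Its mean was 76.5 ± 2.66 TPM in the knockouts and 143 ± 25.8 TPM in the controls (SD, n = 2), a ratio of 0.536 (log2 fold change -0.88, SE 0.14, limma with adjusted p = 0.024). The reads behind these values, recovered from the steps, were 637 and 681 in the knockouts and 1426 and 1143 in the controls, with a counting error of at most 3.96%. HSPE1 did not pass when control 1 was left out (-0.69, adjusted p = 0.115) or when control 2 was left out (-1.06, adjusted p = 0.0693). The call was also lost with no filter on low values (adjusted p = 0.0791) and with a variance prior that does not follow expression (adjusted p = 0.0522).

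HSPD1, the barrel of the same chaperonin, is annotated on the minus strand from 197486581 to 197516737, a span that contains the HSPE1 gene. It had 635 and 632 TPM in the knockouts, against 696 and 727 TPM in the controls. Its knockout values were also below both control values, but the gap was small, on the log2 scale -0.17 with a 95% interval of -0.32 to -0.02 (limma, adjusted p = 0.10). It passed under quantile normalization (-0.26, adjusted p = 0.0368). With median-ratio scaling the HSPD1 value was -0.11 (limma, adjusted p = 0.282). With a GC trend removed, an adjustment chosen after the data were seen, it was -0.056 (adjusted p = 0.531). The ratio of HSPD1 to HSPE1 was 8.10 and 8.47 in the knockouts, against 4.33 and 5.85 in the controls. The groups did not overlap in this ratio, and a two-sided exact permutation test gave p = 0.333, the smallest that 2 against 2 libraries allow. MOB4, the next gene after HSPE1, stood at 7.34 and 7.15 TPM in the knockouts, against 16.95 and 8.41 TPM in the controls (adjusted p = 0.20), and the transcript that joins HSPE1 to MOB4 was at or below 0.121 TPM in every library. The 1024 tested genes of chromosome 2 had a median log2 fold change of -0.11.

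HSPE1 transcripts are short, with a median of 570 bases over the annotated coding transcripts. The 2788 tested genes whose coding transcripts were under 1000 bases had a median log2 fold change of -0.06, the value of all tested genes. HSPE1 shares 281 exon bases with HSPD1 on the opposite strand, 14.2% of its GENCODE exon length of 1977 bases, and 192 with HSPE1-MOB4. The steps in its values implied a length of 876 bases, so these shares may not hold for the deposited values. Whether reads were counted by strand is not given in the sources used here, so reads in the shared bases cannot be assigned to either gene with certainty.

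From the RefSeq start sites used here, HSPD1 and HSPE1 are transcribed away from each other. Their promoter windows are therefore shown, from 250 bases before to 50 after a RefSeq start site (GRCh38.p14). The capitals mark every GAANNTTC or TTCNNGAA, the paired form of the heat shock element.
HSPE1, chr2:197500129-197500428, plus strand: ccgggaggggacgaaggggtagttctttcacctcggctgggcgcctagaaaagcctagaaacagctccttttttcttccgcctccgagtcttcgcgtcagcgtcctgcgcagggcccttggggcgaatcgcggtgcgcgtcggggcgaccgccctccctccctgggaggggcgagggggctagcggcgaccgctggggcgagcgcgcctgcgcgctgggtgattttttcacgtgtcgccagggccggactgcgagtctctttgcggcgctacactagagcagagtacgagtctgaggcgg
HSPD1, chr2:197499791-197500090, minus strand: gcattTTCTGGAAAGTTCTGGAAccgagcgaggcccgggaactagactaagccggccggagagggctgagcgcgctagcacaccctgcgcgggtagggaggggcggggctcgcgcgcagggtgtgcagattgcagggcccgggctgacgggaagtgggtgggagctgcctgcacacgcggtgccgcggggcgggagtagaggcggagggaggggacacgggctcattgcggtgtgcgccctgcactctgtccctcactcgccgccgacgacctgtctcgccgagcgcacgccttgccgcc
The HSPD1 window holds TTCTGGAAAGTTCTGGAA, a run of 18 bases that ends 228 bases upstream of the HSPD1 start site used here. The same run lies 294 to 311 bases upstream of the RefSeq HSPE1 start site used here, 197500379. It is 44 bases outside the HSPE1 window, which itself has no match. The GENCODE span of HSPE1 begins earlier, at 197499994, so the run, from 197500068 to 197500085, lies inside that span. RefSeq gives HSPD1 a further start site 105 bases from that of HSPE1, and the window around it shares 204 bases with the HSPE1 window.

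None of the 3 HSP70 genes passed the limma test, and 1 of them, HSPA1A, had an unadjusted p under 0.05. HSPA8, the constitutive HSP70 of the cytosol (chromosome 11, 123057489 to 123063230, minus strand), had 1279 and 1458 TPM in the knockouts, against 1300 and 1382 TPM in the controls. The knockout values enclosed the control values, and the log2 fold change was 0.03 with a 95% interval of -0.20 to 0.25. HSPA1A and HSPA1B, the stress-inducible HSP70 genes, are neighbours on chromosome 6 and were far lower. HSPA1A (31815464 to 31817946, plus strand) had 17.5 and 23.4 TPM in the knockouts, against 12.6 and 12.8 TPM in the controls. Both knockouts were above both controls, by 0.63 on the log2 scale (SE 0.16), which did not pass the threshold (limma, adjusted p = 0.059). HSPA1A passed with a filter of 5 TPM (adjusted p = 0.045). With knockout 2 as the only knockout library the value was 0.83, and with knockout 1 alone it was 0.43. HSPA1B (31827735 to 31830255, plus strand) had 48.0 and 59.5 TPM in the knockouts, against 44.1 and 48.5 TPM in the controls, with overlapping groups (log2 fold change 0.20, adjusted p = 0.30). The value was 0.36 with knockout 2 alone and 0.051 with knockout 1 alone, so it turned on which knockout library was used.

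These genes are near-identical copies, which limits how far their reads can be separated. Their longest open reading frames of 1926 bases agree at 1922 bases, or 99.8%, whereas HSPA1A and HSPA8 agree at 73.9% of bases. HSPA1B also shares 920 of its 2521 exon bases with AL671762.1 on the same strand. The sum of HSPA1A and HSPA1B was 65.4 and 82.9 TPM in the knockouts, against 56.7 and 61.3 TPM in the controls. Fitted in place of the separate genes, the sum differed by 0.32 on the log2 scale (SE 0.13, limma with adjusted p = 0.16). The ratio of HSPA1A to HSPA1B was 0.365 and 0.394 in the knockouts, against 0.286 and 0.264 in the controls, without overlap (two-sided exact permutation p = 0.333, the smallest possible). Per length, HSPA8 exceeded that sum 19.5-fold and 17.6-fold in the knockouts, against 22.9-fold and 22.5-fold in the controls.

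The promoter windows of the inducible copies are shown because their likeness extends beyond the coding sequence, with 277 of 300 bases identical in an alignment. Capitals again mark GAANNTTC or TTCNNGAA.
HSPA1A, chr6:31815293-31815592, plus strand: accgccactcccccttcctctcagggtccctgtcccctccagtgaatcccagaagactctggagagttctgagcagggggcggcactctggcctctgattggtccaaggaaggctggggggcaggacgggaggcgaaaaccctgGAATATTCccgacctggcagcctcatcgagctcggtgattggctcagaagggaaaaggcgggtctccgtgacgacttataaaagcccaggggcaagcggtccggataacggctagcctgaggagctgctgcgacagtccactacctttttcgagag
HSPA1B, chr6:31827488-31827787, plus strand: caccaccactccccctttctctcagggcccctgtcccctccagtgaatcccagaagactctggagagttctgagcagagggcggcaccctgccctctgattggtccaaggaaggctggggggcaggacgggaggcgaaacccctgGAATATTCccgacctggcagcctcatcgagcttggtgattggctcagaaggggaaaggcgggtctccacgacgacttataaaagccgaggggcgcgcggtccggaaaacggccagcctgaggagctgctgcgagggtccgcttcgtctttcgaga
Each window holds 1 such match, with the same letters, and each also holds a TATAAA. A longer form, 3 alternating units of GAA and TTC with any 2 bases between neighbours, read on either strand, was found in windows of HSPA8, HSP90AA1, HSP90AB1 and HSPD1, so in 4 of 10 members, against 0.608% of 27305 genes with a window. The paired form, which every longer match contains, was found in 8 of 10 members, against 16.2% of those genes. HSPE1 and HSPH1 were the members with no match in their windows, and windows cover only part of a promoter.

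**Figure D2:**
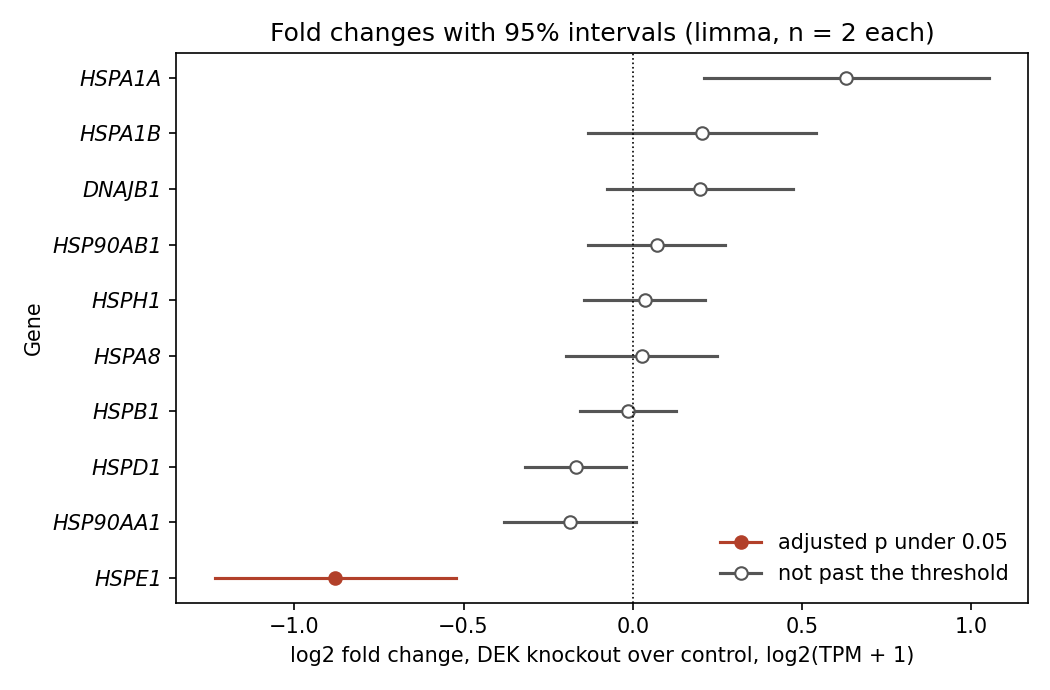
Log2 fold changes of the 10 genes, DEK knockout over control, on the log2(TPM + 1) scale, with 95% intervals from limma (2 libraries per group). HSPE1 is the filled point on the left at -0.88, HSPA1A lies furthest to the right at 0.63 without passing the threshold, and the other members lie between -0.19 and 0.20.

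Neither cochaperone of HSP70 among the members passed the test. DNAJB1, a J-domain protein that delivers clients to HSP70 (chromosome 19, 14514770 to 14529770, minus strand), had 68.0 and 81.0 TPM in the knockouts, against 63.7 and 65.3 TPM in the controls. Both knockouts were above both controls, by 0.20 on the log2 scale (SE 0.11, limma with adjusted p = 0.23). The value was 0.32 with knockout 2 as the only knockout library and 0.075 with knockout 1 alone. HSPH1, an HSP110 protein and nucleotide exchange factor (chromosome 13, 31134974 to 31162388, minus strand), had 90.8 and 95.3 TPM in the knockouts, against 90.7 and 90.8 TPM in the controls. Its groups nearly coincided, with a log2 fold change of 0.04 and a 95% interval of -0.14 to 0.21. The ratio of HSPH1 to HSPA8, the exchange factor to its main partner, was 0.0710 and 0.0654 in the knockouts, against 0.0698 and 0.0657 in the controls, with overlapping groups. With a GC trend removed, an adjustment chosen after the data were seen, HSPH1 differed by 0.31 on the log2 scale (adjusted p = 0.0872).

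Neither HSP90 gene passed the test with all 4 libraries. HSP90AA1, the inducible isoform (chromosome 14, 102080738 to 102139699, minus strand), had 531 and 494 TPM in the knockouts, against 559 and 608 TPM in the controls. Both knockouts were below both controls, by -0.19 on the log2 scale (SE 0.08, limma with adjusted p = 0.14). The value was -0.24 with knockout 2 as the only knockout library and -0.13 with knockout 1 alone. HSP90AB1, the constitutive isoform (chromosome 6, 44246166 to 44253888, plus strand), had 1521 and 1636 TPM in the knockouts, against 1429 and 1579 TPM in the controls, with overlapping groups and a 95% interval of the log2 fold change of -0.13 to 0.27. The ratio of HSP90AA1 to HSP90AB1 was 0.349 and 0.302 in the knockouts, against 0.391 and 0.385 in the controls, without overlap (two-sided exact permutation p = 0.333, the smallest possible).

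HSPB1, the small heat shock protein HSP27, which holds unfolded proteins without ATP and binds actin, was the most abundant member (chromosome 7, 76302544 to 76304295, plus strand). It had 1677 and 1712 TPM in the knockouts, against 1726 and 1698 TPM in the controls. The groups overlapped, and the log2 fold change of -0.01 had the narrowest 95% interval of the members, -0.16 to 0.13. Its counting error was at most 0.806%. Shared exon bases with other genes were few in the remaining members, with 211 bases of DNAJB1 shared with TECR and 197 of HSP90AA1 with WDR20, both on the opposite strand, and 88 and 87 of HSPA8 with the small nucleolar RNAs SNORD14C and SNORD14D on its own strand.

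**Figure D3:**
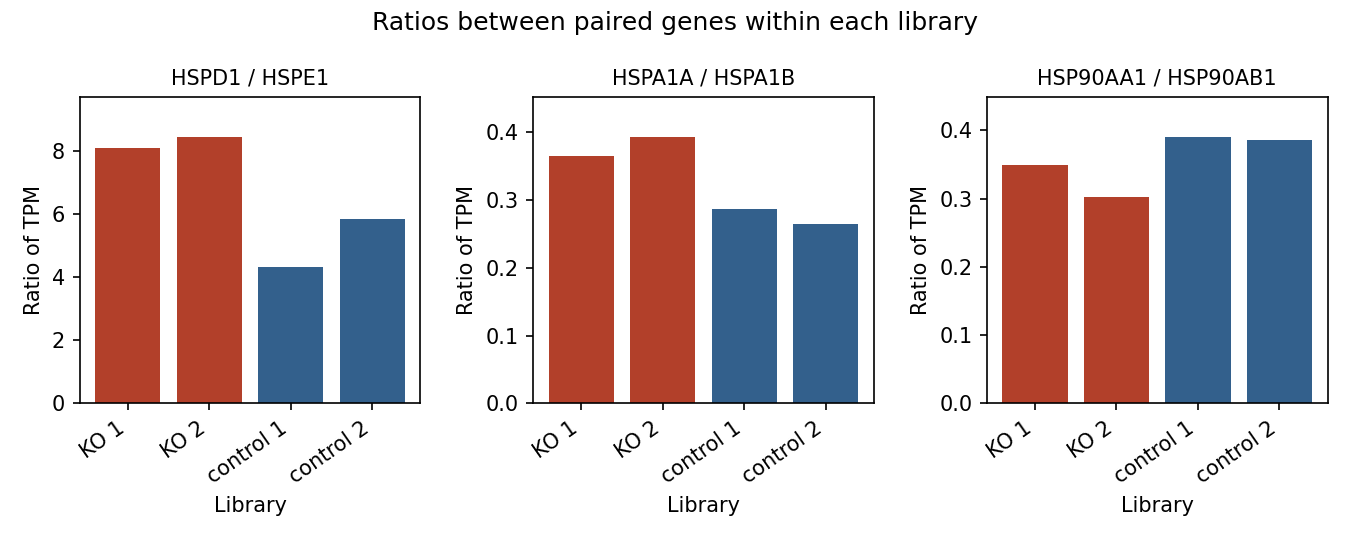
Ratio of TPM between the genes of 3 pairs in each library, with knockouts in red on the left and controls in blue on the right. HSPD1 to HSPE1 and HSPA1A to HSPA1B are higher in both knockouts, and HSP90AA1 to HSP90AB1 is lower in both, with 2 libraries per group.

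The other genes of the chaperone network were examined in 8 lists of 114 genes, of which 98 were tested. Of these, 11 were called higher and 11 lower, or 22.4% against 17.7% of all genes. Of the 7210 tested genes with means of at least 12.7 TPM in both groups, 21.8% were called, near the share of the lists. Some genes of the lists lie below that level. Among the heat shock factors and their regulators, 1 of 5 tested genes rose and 1 fell, against 9.06% higher and 8.67% lower of all tested genes. HSF1, the main activator of the heat shock response, had 92.6 and 110 TPM in the knockouts, against 82.2 and 85.5 TPM in the controls (log2 fold change 0.27, limma adjusted p = 0.14). The HSF1 value was 0.39 with knockout 2 as the only knockout library and 0.14 with knockout 1 alone. HSF2, a related factor, had 10.6 and 11.1 TPM in the knockouts, against 15.5 and 14.2 TPM in the controls (log2 fold change -0.42, adjusted p = 0.065). By limma HSF2 passed with a filter of 5 TPM (adjusted p = 0.0495), and with the GC trend removed it was -0.16 (adjusted p = 0.333). HSBP1, which binds HSF1 and restrains it, fell to 43.3 and 43.5 TPM in the knockouts, against 71.8 and 65.6 TPM in the controls (log2 fold change -0.65, adjusted p = 0.018). HSF2BP, an HSF2-binding protein with a role in meiosis, rose to 14.6 and 16.0 TPM in the knockouts, against 6.40 and 7.12 TPM in the controls (log2 fold change 1.07, adjusted p = 0.016).

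Among relatives of the members, 2 other HSP70 and HSP110 genes and 1 other small heat shock protein fell, and none of these lists held a gene called higher. Of all tested genes, 8.67% were called lower and 9.06% higher, and these lists are small. HSPA4, an HSP110 relative of HSPH1, fell to 138 and 122 TPM in the knockouts, against 171 and 171 TPM in the controls (log2 fold change -0.40, limma adjusted p = 0.040), but was not called with the GC trend removed (-0.23, adjusted p = 0.0856) or with median-ratio scaling (-0.34, adjusted p = 0.0595). HSPA14, an HSP70 protein associated with the ribosome, fell by 0.44 on the log2 scale (adjusted p = 0.032), and the other 5 of 7 tested genes of the HSP70 and HSP110 list did not pass. HSPA4L, a further HSP110 relative, had 6.92 and 5.33 TPM in the knockouts, against 10.6 and 8.56 TPM in the controls (adjusted p = 0.091). HSPA1L, next to HSPA1A, stood at 2.30 and 2.74 TPM in the knockouts, against 1.25 and 1.21 TPM in the controls (adjusted p = 0.068). HSPA6, an HSP70 gene that is nearly silent without stress, was not tested, at 1.19 and 0.571 TPM in the knockouts and 0.462 and 0.445 TPM in the controls. Of 3 tested small heat shock proteins, HSPB8 fell to 91.4 and 93.3 TPM in the knockouts, against 135 and 149 TPM in the controls (log2 fold change -0.62, adjusted p = 0.018). CRYAB, the alpha-crystallin relative of HSPB1, was near the filter, with 1.79 and 0.929 TPM in the knockouts and 1.196 and 0.980 TPM in the controls. HSPB11, a protein of intraflagellar transport despite its name, had overlapping groups.

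DNAJB6, a J-domain protein known for suppressing aggregation of polyglutamine proteins, was the only gene called in the list of other DNAJA and DNAJB genes. That is 1 of 9 tested, or 11.1%, against 17.7% of all tested genes. DNAJB6 rose to 185 and 225 TPM in the knockouts, against 96.3 and 102 TPM in the controls, with no overlap between groups (log2 fold change 1.04, limma with adjusted p = 0.016). The other 8 tested DNAJA and DNAJB genes did not pass, with DNAJA1 at 235 and 220 TPM in the knockouts and 235 and 244 TPM in the controls. In the list of HSP70 and HSP90 cochaperones 3 of 28 rose and 3 fell, or 21.4% called against 17.7% of all tested genes. The genes that rose were TOMM34 (log2 fold change 0.64), STUB1, the ubiquitin ligase CHIP that works on HSP70 and HSP90 clients (0.38), and CDC37, which brings kinases to HSP90 (0.28). The genes that fell were BAG2 (-0.63) and BAG1 (-0.57), nucleotide exchange factors or regulators of HSP70, and CACYBP (-0.38). With the GC trend removed BAG2 (-0.25, adjusted p = 0.184), CACYBP (-0.088, adjusted p = 0.451) and CDC37 (0.18, adjusted p = 0.0918) were no longer called by limma. CACYBP was also lost with median-ratio scaling (adjusted p = 0.0662), and CDC37 with quantile normalization (0.18, adjusted p = 0.0684).

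Of 15 tested genes of the cytosolic chaperonin, built of CCT subunits, and of prefoldin, which hands it actin and tubulin, 1 rose and 2 fell, which is 20% called against 17.7% of all tested genes. CCT6A, a CCT subunit, fell to 348 and 329 TPM in the knockouts, against 523 and 556 TPM in the controls (log2 fold change -0.67, limma adjusted p = 0.014). CCT4, another subunit, had 407 and 384 TPM in the knockouts, against 438 and 474 TPM in the controls (adjusted p = 0.11). The prefoldin subunit PFDN2 rose (log2 fold change 0.43) and VBP1, also of prefoldin, fell (-0.68), and the median of the list was -0.10. VBP1 was not called with the GC trend removed (-0.34, adjusted p = 0.0783) or without knockout 2 (-0.64, adjusted p = 0.0618).

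Mitochondrial chaperones and proteases other than the HSPD1 and HSPE1 pair had 1 call among the 17 tested genes of their list, which also counts the neighbour MOB4. That is 5.88%, against 17.7% of all tested genes. The gene that fell was AFG3L2, an inner membrane protease subunit (log2 fold change -0.34, limma adjusted p = 0.041). This call was lost with the GC trend removed (-0.16, adjusted p = 0.22) and with median-ratio scaling (-0.28, adjusted p = 0.0673). CLPX, which unfolds proteins for the matrix protease CLPP, had 18.8 and 17.1 TPM in the knockouts, against 23.4 and 25.3 TPM in the controls (adjusted p = 0.057). HSPA9, the mitochondrial HSP70, had 254 and 272 TPM in the knockouts, against 248 and 271 TPM in the controls, and its groups overlapped. TRAP1, the mitochondrial HSP90, had 159 and 168 TPM in the knockouts, against 182 and 176 TPM in the controls (log2 fold change -0.13, adjusted p = 0.21). The list had a median log2 fold change of -0.14, against -0.06 over all tested genes. The mitochondrial genome's own transcripts held 16.4% and 16.5% of TPM in the knockouts and 17.2% and 19.0% in the controls, and the values stayed close when these transcripts were left out. HSPE1 then had a log2 fold change of -0.91 (adjusted p = 0.022), AFG3L2 -0.37 (adjusted p = 0.0385), CLPX -0.45 (adjusted p = 0.052) and TRAP1 -0.16 (adjusted p = 0.137), while HSPA9 changed sign near 0, to -0.012.

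A list of heat-induced genes outside the chaperone families above, which holds the collagen chaperone SERPINH1, had 5 of 14 tested genes rising and 1 falling. Of all tested genes, 9.06% were called higher and 8.67% lower. The median log2 fold change of the list was 0.38, against -0.06 over all tested genes. UBB, a ubiquitin gene, rose to 1317 and 1471 TPM in the knockouts, against 1051 and 1040 TPM in the controls. RGS2, a regulator of G protein signalling, rose (log2 fold change 0.79), as did HMOX1 (0.87) and IER5 (0.32), while IER5L fell (-0.58). IER5 was not called with the GC trend removed (adjusted p = 0.0529) or with quantile normalization (adjusted p = 0.0526). Most of these genes also answer to other stresses or growth signals, and the list was drawn up with earlier results of these data known, so its count is not independent evidence of a direction. Of the 23 called genes among the 10 heat shock proteins and the 8 lists, 0 remained called without control 1 and 0 without control 2 (limma, smallest adjusted p = 0.0991 and 0.0693), with the direction the same for all 23. With no filter 0 of the 23 remained called (smallest adjusted p = 0.0604), with a variance prior without trend 9 and with the GC trend removed 15, where HSPA14 had no GC value. At an unadjusted p under 0.05, 1733 of all genes were higher and 1248 lower without control 1, and 1574 were higher and 1785 lower without control 2.

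**Figure D4:**
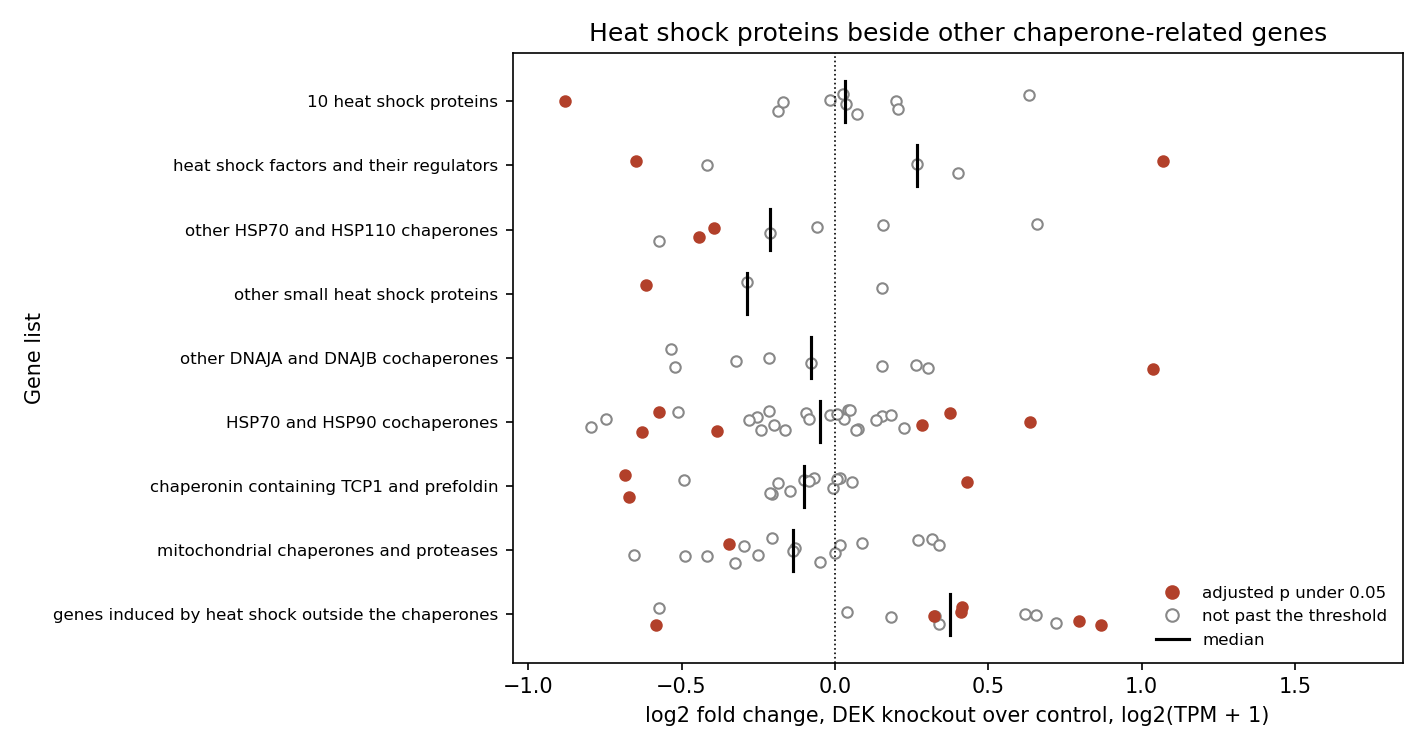
Log2 fold changes on the log2(TPM + 1) scale of the 10 heat shock proteins and of the tested genes in 8 chaperone-related lists, 1 point per gene, with filled red points for adjusted p under 0.05 and a black line at each median. The 10 heat shock proteins gather around 0.03 apart from HSPE1 and HSPA1A, and the list of other heat-induced genes has its median at 0.38.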

How the data were processed

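Polyadenylated RNA of 786-O cells was sequenced, per the labels' protocols. The authors deposited a table of TPM with 1 column per library. Per the submitters' processing notes, the tools were cutadapt 1.18, STAR 2.7.8a and featureCounts 2.0.1 with DESeq2 1.36.0, on hg38, and no role of each is stated. For the annotation, gene lengths, strand setting and multi-mapping reads, the method was not given in the sources used here. Positions are from GENCODE release 29, matched by symbol for 54286 genes. Promoter windows are from RefSeq (GRCh38.p14).

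Libraries were grouped by title. The filter asked for 1 TPM or more in 2 or more libraries. On the log2(TPM + 1) scale, limma 3.58.1 (R 4.3.3) compared the groups, with a prior on the variance that depends on mean expression and no further covariate. Its two-sided p-values were adjusted by Benjamini-Hochberg over all 15815 genes, and changes of low genes are understated on this scale. The procedure was checked on simulated data in which 200 genes were changed by set amounts. That is far fewer genes than were called here, so the check does not measure how reliable these calls are. Multiplying TPM by exon length gave whole reads within 0.02 for 53.7% to 55.6% of values under 200 reads. For the members, the smallest length that made the reads whole in all 4 libraries was used. Depths and counting errors from these steps are approximate and cover counting error only.

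Alternatives were another pseudocount, no filter or a stricter one, median-ratio scaling, quantile normalization, a variance prior without trend, a replicate block, the sum of HSPA1A and HSPA1B and leaving out each library. After seeing the data, 2 alternatives were added, removal of a GC trend and leaving out the mitochondrial genome's genes. Named genes are the 10 members, DEK, HSF1, HSF2, HSPA9, TRAP1 and up to 4 genes with the smallest p in each list. TOMM34, CACYBP, HMOX1, IER5, SERPINH1, HSPA6, DNAJA1, MOB4 and the markers were named after their values were seen. The members and lists were chosen with earlier results of these data known. A gene of the lists that the rule would name is not reported here.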

Additional observations from a re-analysis of the deposited data

How the results depend on the processing

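HSPE1 kept its direction in all 14 alternatives and was called in 10 of them. With no filter, 0 members were called lower and 26 genes higher and 0 lower over all genes, with 3663 lower at an unadjusted p under 0.05 in limma. A variance prior without trend gave 0 members lower, and 866 genes higher and 571 lower over all genes. At 5 TPM or more, 1 member was called higher, HSPA1A, and quantile normalization called 2 lower. The replicate block also called 1 member higher, HSPA1A (adjusted p = 0.0475), and no longer called AFG3L2 (0.0598), CACYBP (0.0563), CDC37 (0.0698) and IER5 (0.0666). Deviations of libraries with the same number correlated at r = 0.0989 across 15815 genes, and the numbers were not taken as pairing. Leaving out each library in turn gave 0 to 3 members higher, 0 to 2 lower, 44 to 2375 of all genes higher and 1 to 3135 lower, the most without knockout 1. In place of 1433 higher and 1371 lower, the split was 1588 and 955 with median-ratio scaling, 1435 and 1179 with quantile normalization, 1372 and 1107 with the GC trend removed, 1365 and 1643 without the mitochondrial genome and 1337 and 1598 at 5 TPM. Signs turned round near 0 for HSPB1 with median-ratio scaling (0.04625), HSP90AB1 with quantile normalization (-0.002998), and HSPA8 (-0.002902) and HSPA9 (-0.01179) without the mitochondrial genome. Over left-out libraries the log2 fold change spanned -0.06776 to 0.1215 for HSPA8, -0.001431 to 0.1425 for HSP90AB1, -0.02966 to 0.0001615 for HSPB1 and -0.0452 to 0.08103 for HSPA9. The cause was not tested. With 2 libraries per group, the spread of each gene is poorly known.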
